A study of Arabidopsis thaliana with 13 samples.

Results

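The cytochrome P450 genes described here are those whose ATH1 probe set is named for a single gene with a symbol made of CYP, a family number, a subfamily letter and a member number. This rule found 23 of the 22810 probe sets, each for a different gene. Cyclophilins that carry a CYP symbol without a subfamily letter were left out. The TAIR10.1 annotation lists 236 genes that fit the same rule, so the 23 are a small and uneven sample: 19 of them belong to the CYP71B subfamily, and the other 4 are CYP51G2, CYP78A9, CYP79A2 and CYP84A4. By family, 22 fall in clan 71, the A-type P450s of plants, and 1 in clan 51. All 23 probe sets carry the suffix given to sets designed to match a single gene.

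P450s are haem enzymes of the endoplasmic reticulum that take electrons from a reductase and usually add an oxygen atom to a small molecule. In plants they act in the synthesis of sterols, hormones, phenylpropanoids and defence compounds. The CYP71 family has expanded by local duplication, so that many of its genes lie side by side on the chromosome, and its best-known CYP71B member, PAD3 (CYP71B15), makes the antimicrobial indole compound camalexin.

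Whole roots of 10-day-old Arabidopsis thaliana seedlings were compared in 5 genotypes on 13 arrays. Lines 12-1 and 17-3 (CLE3ox, 2 arrays each) overexpress CLE3, a small secreted signalling peptide, in the Col-0 ecotype, and Col-0 plants (3 arrays) were their wild type. The mutant clv1-15 (3 arrays), which carries an allele of the receptor kinase gene CLAVATA1, is in the Ler ecotype, and Ler plants (3 arrays) were its background. Every group received 16 h of light and 8 h of dark at 22 °C on agar with MGRL nutrients, 1% sucrose and a nitrate supply of 0.1 mM KNO3. The promoter that drives CLE3 is not given in the sources used here, clv1-15 is 1 allele, and Ler, short for Landsberg erecta, also carries the erecta mutation. The labels call the arrays biological replicates without saying whether they came from separate cultures or days, so p-values measure only the spread between these arrays, which may be technical.

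Signals are MAS5 intensities on a linear scale, with array medians between 189.8 and 200.1. Replicates of a group correlated across probe sets at Pearson's r between 0.9867 and 0.9934, and genes are not independent replicates. No probe set is named for CLE3 or CLV1 (0 each), so the targeted genes could not be checked in these arrays by name. The root genes EXPA7, EXPA18 and PYK10 were measured, 3 of a list of 10. Of 10 genes of green shoot tissue, RCA and LHCB4.1 were measured. Both lay above the array medians on every array, RCA at 307.2 or more and LHCB4.1 at 345.5 or more. In whole-root RNA, fewer cells of a type and less RNA per cell cannot be told apart.

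Of the 23 P450 genes, 10 passed the filter on low signal and were tested: CYP71B6, CYP71B23, CYP71B26, CYP71B28, CYP71B29, CYP71B34, CYP71B37, CYP51G2, CYP78A9 and CYP84A4. The filter left out the lowest 30% of probe sets by their mean log2 signal over all arrays, which put its edge at a signal of 51.75. No member lay near that edge: CYP84A4, the lowest inside it, had a typical signal of 126.1, and CYP71B27, the highest outside it, had 22.5. Each typical signal is the mean on the log2 scale turned back to a signal.

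The 13 genes below the filter were CYP71B5, CYP71B16, CYP71B21, CYP71B22, CYP71B24, CYP71B25, CYP71B27, CYP71B30P, CYP71B31, CYP71B35, CYP71B36, CYP71B38 and CYP79A2. Among them are CYP79A2, which turns phenylalanine into the oxime of benzylglucosinolate, and CYP71B31, which acts on the floral scent compound linalool. CYP79A2 lay between 0.8 and 5.0 over the 13 arrays, and CYP71B31 between 0.5 and 5.1. CYP71B22 reached 42.5 on a Ler array and CYP71B35 reached 36.9 on a Col-0 array. None of the 13 exceeded the filter's edge on any array. CYP71B27 and CYP51G2 are annotated as transcribed pseudogenes, and CYP71B30P carries the pseudogene suffix in its symbol.

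**Figure D1:**
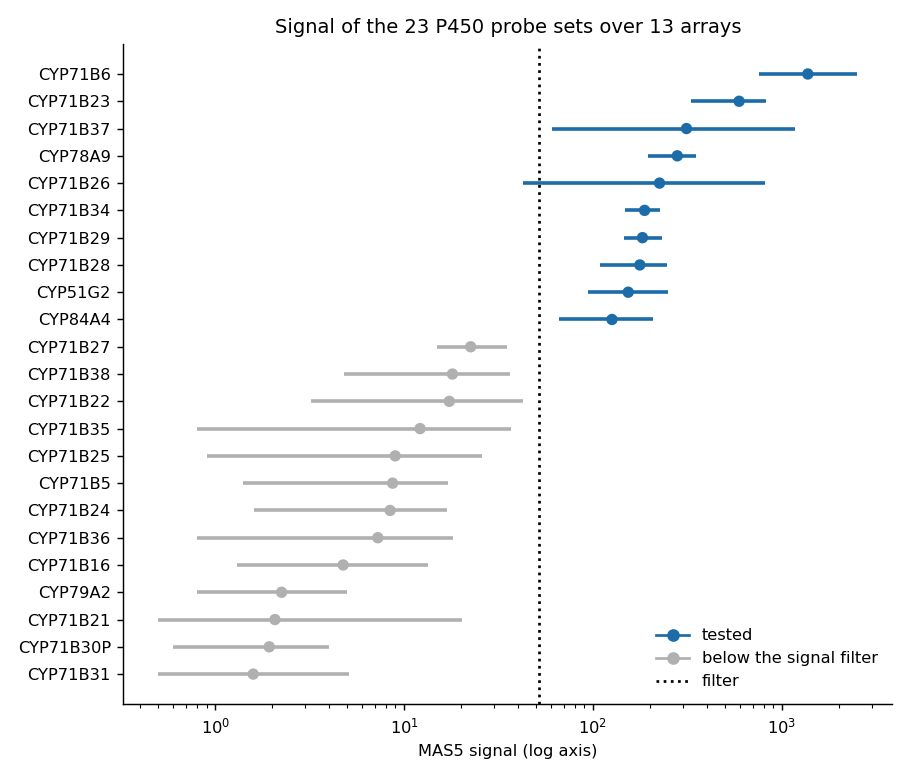
Signal of each of the 23 P450 probe sets on a log axis, with the point at the mean over 13 arrays on the log2 scale and the line from the lowest to the highest array. The 10 tested genes have points at 126.1 or above, and the 13 others at 22.5 or below, with the filter at 51.75 drawn as a dotted line.

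Of the 23 genes, 17 lie in tandem rows, defined as members of a family with at most 5 annotated genes between neighbours. Rows count members only. The annotation holds 36 CYP71B genes and 19 are members, so a row need not be a complete gene cluster. A row on chromosome 1 holds CYP71B27, CYP71B28 and CYP71B29, of which CYP71B28 and CYP71B29 were tested. On chromosome 3, the first row holds CYP71B16 and CYP71B21 to CYP71B24, 5 members of which only CYP71B23 was tested. A probe set shared by CYP71B20 and CYP71B19 lies inside it in gene order. The next row holds 6 members, CYP71B25, CYP71B26 and CYP71B34 to CYP71B37, with CYP71B26, CYP71B34 and CYP71B37 tested. Another row on the same chromosome, with CYP71B5, CYP71B30P and CYP71B31, had 0 of its 3 members tested. With up to 10 genes allowed between neighbours, the first and the next row on chromosome 3 join into a row of 11. In that joined row 4 of 11 members were above the filter. CYP71B26 and CYP71B34 were neighbours among the members, and CYP71B23 and CYP71B37 stood beside members below the filter.

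The comparison of the CLE3 overexpressing lines with Col-0 asks which root transcripts differ when this peptide is overproduced. Among the tested P450 genes, CYP71B6 was lower in both lines, and it was the only member past the test in either direction: 1 of the 10, where 2.44% of all tested probe sets passed. CYP71B6 (AT2G24180) makes indole-3-carbaldehyde and indole-3-carboxylic acid from indole-3-acetonitrile, in the indole defence branch. Its signal was 1755.5 and 1685.4 in line 12-1 and 1863.9 and 1875.4 in line 17-3, against 2407.6, 2516.4 and 2313.9 in Col-0. All 4 arrays of the lines lay below all 3 Col-0 arrays.

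The log2 fold change of CYP71B6 was -0.42 ± 0.06 (SE), 1.34-fold lower in the lines (limma, adjusted p = 0.00096). Fold changes are on the log2(signal + 16) scale, which understates the change of low signals. Taken alone, line 12-1 differed from Col-0 by -0.48 ± 0.07 (limma, adjusted p = 0.0033), and line 17-3 by -0.36 ± 0.07 (limma, adjusted p = 0.0091). In the direct test of 17-3 against 12-1 the difference was 0.12 ± 0.08 (limma, adjusted p = 0.86; 95% interval -0.05 to 0.29). With 1 array of a line left out, the remaining array has no spread of its own and is taken to vary like the other groups. Line 12-1 then differed by -0.51 without its first array and by -0.45 without its second (limma, adjusted p = 0.033 and 0.12). Line 17-3 differed by -0.36 without its first array and by -0.37 without its second (limma, adjusted p = 0.053 and 0.072).

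The signal of the bioD hybridisation control set the second array of each line and Col-0 replicate 3 apart, at 3894.3 or more, against 3091.9 or less on the other Col-0 background arrays. Among the 4 arrays with the lower control signal, CYP71B6 differed by -0.44 between the lines and Col-0 (limma, adjusted p = 0.034). Among the 3 with the higher control signal, 1 per group, it differed by -0.38 (limma, adjusted p = 0.20). Each line has 1 array in either set, and the error of these values comes mainly from the clv1-15 and Ler arrays, so the missed thresholds in them say little. Line 12-1 differed by -0.48 in the lower and -0.45 in the higher set (limma, adjusted p = 0.15 and 0.38), and line 17-3 by -0.40 and -0.30 (limma, adjusted p = 0.11 and 0.34). Of the 5 measured tissue markers none passed for the lines together or for line 12-1. In line 17-3 RCA, EXPA18 and PYK10 did not pass, while LHCB4.1 was 0.51 ± 0.10 higher and EXPA7 fell by 0.45 ± 0.10 on the log2 scale (SE; limma, adjusted p = 0.012 and 0.021). Their part in the result was not tested.

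The other 9 tested members did not pass in the lines against Col-0. The 95% intervals of the 9 bound what these arrays could show: the interval was -0.27 to 0.39 for CYP71B26, -0.13 to 0.29 for CYP71B37 and -0.36 to 0.24 for CYP71B28. CYP71B23 had 738.6 and 763.7 in line 12-1 and 726.4 and 817.5 in line 17-3, against 740.7, 828.2 and 733.9 in Col-0. These ranges overlap almost entirely, with a log2 fold change of -0.01 ± 0.10 (SE).

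Line by line, the background was 0.433% for 12-1 and 3.32% for 17-3, with 1 member past the test in each. Between the lines 0.264% of probe sets passed in limma, and 0 of the 10 members did. At an unadjusted p under 0.05 there were also 0 of the 10, against 6.96% of all tested probe sets, so few would be looked for among 10. CYP78A9 had 299.3 and 247.5 in line 17-3, against 299.8, 337.5 and 321.4 in Col-0. Its arrays in that line did not overlap with those of Col-0, and the log2 fold change of -0.22 ± 0.11 (SE) missed the threshold (limma, adjusted p = 0.36).

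The median log2 fold change was -0.01 over the 10 members in the lines against Col-0, and 0.01 over all 15922 tested probe sets. CYP51G2, the only clan 51 member, had 0.13 ± 0.11 (SE; limma, adjusted p = 0.63). CYP51G2 is a relative of the obtusifoliol demethylase of sterol synthesis, CYP51G1. The 9 tested clan 71 members spanned -0.42 to 0.08, and the 6 tested tandem members spanned -0.06 to 0.08.

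**Figure D2:**
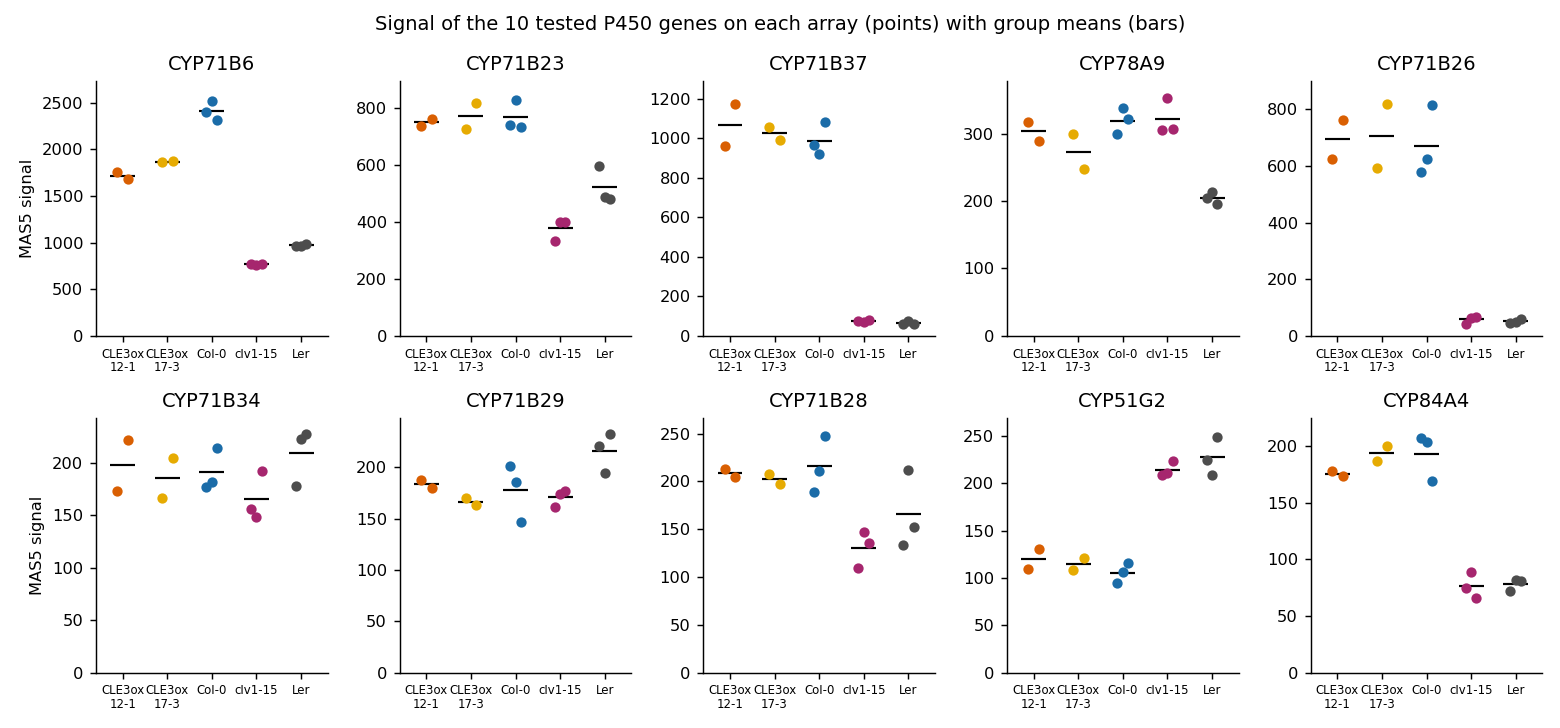
MAS5 signal of the 10 tested P450 genes on every array (points), with group means (bars), each panel on its own axis from 0. CYP71B6 is lower in both CLE3ox lines than in Col-0 and lower in clv1-15 than in Ler, while CYP71B37, CYP71B26 and CYP84A4 are high in all 7 arrays of the Col-0 background and low in all 6 of the Ler background.

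The mutant comparison asks which root transcripts differ when CLAVATA1 is altered. In clv1-15 roots CYP78A9 was higher than in Ler, and CYP71B23 and CYP71B6 were lower. Thus 3 of the 10 tested members passed, 1 higher and 2 lower, where 15.3% of all tested probe sets passed (6.88% higher and 8.4% lower).

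CYP78A9 (AT3G61880), which promotes the growth of fruits and seeds, had signals of 306.1, 352.3 and 307.6 in clv1-15, against 204.5, 213.6 and 195.9 in Ler. Every mutant array lay above every Ler array. The log2 fold change was 0.61 ± 0.10 (SE), 1.53-fold (limma, adjusted p = 0.00093). The range in clv1-15 overlapped that of Col-0, 299.8 to 337.5, a pair of groups that no test compared.

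CYP71B23 (AT3G26210), from the first row on chromosome 3, had 331.8, 400.4 and 401.2 in clv1-15, against 598.6, 487.7 and 481.5 in Ler. The groups did not overlap, and the log2 fold change was -0.45 ± 0.10 (SE), 1.37-fold lower in the mutant (limma, adjusted p = 0.0089). It was called in all 17 alternatives run, with adjusted p up to 0.048.

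CYP71B6 had 771.1, 758.7 and 776.2 in clv1-15, against 964.3, 969.4 and 989.9 in Ler. The replicates of each group lay within a narrow band, and the mutant was lower on every array. Its log2 fold change was -0.34 ± 0.065 (SE), 1.26-fold lower (limma, adjusted p = 0.0029). CYP71B6 was the only tested member lower past the test both in the CLE3ox lines and in clv1-15. The share of all tested probe sets lower in both was not counted, so whether a shared fall is unusual cannot be told. The difference between its 2 effects, which share no arrays, was -0.09 ± 0.09 (SE; limma, adjusted p = 0.57; 95% interval -0.28 to 0.10).

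**Figure D3:**
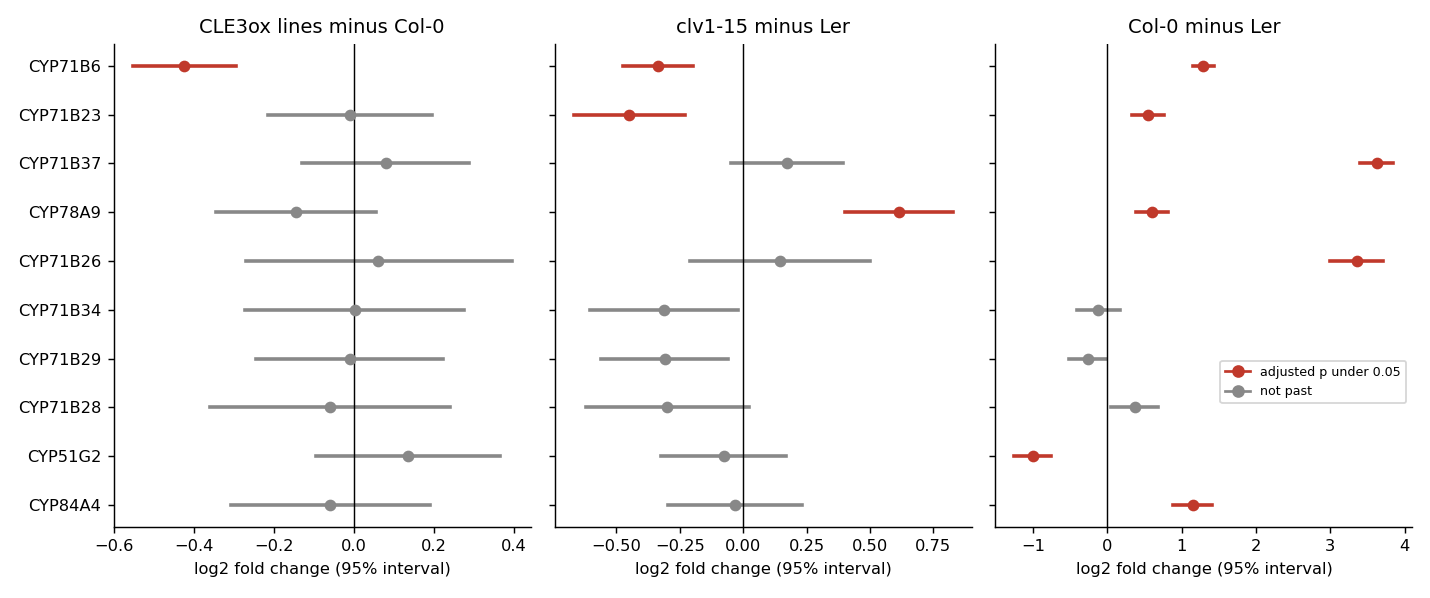
Log2 fold change and 95% interval of the 10 tested P450 genes in 3 comparisons (the CLE3ox lines with Col-0, the mutant with Ler, and the wild types), with red for an adjusted p under 0.05. The panels have different horizontal scales: CYP71B6 is the only red point in the first, CYP71B6, CYP71B23 and CYP78A9 are red in the second, and CYP71B37 and CYP71B26 reach 3.63 and 3.35 in the third.

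The 7 members that missed the threshold in clv1-15 included a pair from the chromosome 1 row. CYP71B29 had 161.1, 174.2 and 177.1 in clv1-15, against 220.4, 194.6 and 232.2 in Ler. Its groups did not overlap, and its log2 fold change was -0.31 ± 0.12 (SE; limma, adjusted p = 0.089). CYP71B28 had 109.1, 146.7 and 135.2 in clv1-15, against 134.0, 211.8 and 152.0 in Ler, so the groups overlapped (-0.30 ± 0.15; limma, adjusted p = 0.19).

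In the row of 6 members, CYP71B34 had 155.9, 148.3 and 191.7 in clv1-15, against 178.0, 222.3 and 227.2 in Ler. Its log2 fold change was -0.31 ± 0.14 (SE; limma, adjusted p = 0.14). CYP71B26 had 42.5, 64.7 and 68.4 in clv1-15, against 44.1, 50 and 58.3 in Ler, and CYP71B37 had 74.7, 71 and 81.1 in clv1-15, against 62.0, 73.4 and 60.8 in Ler. The ranges of both genes overlapped between the groups, with values of 0.15 ± 0.17 and 0.17 ± 0.105 on the log2 scale (limma, adjusted p = 0.60 and 0.29). CYP84A4 and CYP51G2 had values of -0.03 ± 0.125 and -0.08 ± 0.12 (limma, adjusted p = 0.89 and 0.70).

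Over the 10 members the median log2 fold change in clv1-15 was -0.19, and over all tested probe sets -0.02. The genes of green shoot tissue were higher in the mutant as well: RCA by 0.49 ± 0.12 and LHCB4.1 by 0.43 ± 0.09 (SE; limma, adjusted p = 0.014 and 0.0066). Their summed signal was 1436.9 to 1579.5 in clv1-15 and 912.0 to 1247.1 in Ler, 1006.2 to 1022.9 in line 17-3, 673.8 to 800.8 in line 12-1 and 701.7 to 773.9 in Col-0. The root hair expansin EXPA18 was 0.68 ± 0.10 higher in clv1-15 (limma, adjusted p = 0.00059), and EXPA7 and PYK10 did not pass. The part of these tissue differences in the P450 results was not tested.

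The difference between the CLE3ox effect and the clv1-15 effect passed for CYP78A9 alone, where 11.2% of all tested probe sets passed. CYP78A9 had log2 fold changes of -0.14 ± 0.09 in the lines and 0.61 ± 0.10 in the mutant, a difference of -0.76 ± 0.14 (SE; limma, adjusted p = 0.0025). For CYP71B23 the difference was 0.44 ± 0.14 (limma, adjusted p = 0.057), which passed only when the first array of line 17-3 was left out (adjusted p just under 0.05). The values of the other 8 members in the lines and in the mutant were not shown to differ.

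The largest log2 fold changes of the P450 genes lay between the wild types. Col-0 was higher than Ler for CYP71B37, CYP71B26, CYP71B6, CYP84A4, CYP78A9 and CYP71B23, and lower for CYP51G2. These 7 of 10 members, 6 higher and 1 lower, stand beside 45.3% of all tested probe sets (20.9% higher and 24.4% lower). CYP71B26 passed the filter through its level in the Col-0 background, so the count depends in part on the filter. With no filter, 8 of 23 members passed, where 32.5% of all probe sets did. The median log2 fold change was 0.58 over the 10 members and -0.04 over all tested probe sets. Array probes were designed on one genome sequence, so a sequence difference between the ecotypes under a probe and a difference in transcript level cannot be told apart here.

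CYP71B37 (AT3G26330) had 964.7, 922.5 and 1081.4 in Col-0, against 62.0, 73.4 and 60.8 in Ler. The log2 fold change was 3.63 ± 0.105 (SE), 12.4-fold (limma, adjusted p = 6.6e-13), and its size ranked 42 among the 15922 tested probe sets. With the pseudocount of 1 the value was 3.90, and with 64 it was 3.02.

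CYP71B26 (AT3G26290) had 577.5, 622.4 and 813.4 in Col-0, against 44.1, 50 and 58.3 in Ler. It was 3.35 ± 0.17 higher on the log2 scale (SE), 10.2-fold (limma, adjusted p = 3.3e-10), and ranked 57 by size. In Ler its arrays lay around the filter's edge of 51.75, so it passed the filter through its level in the Col-0 background. Its value was 3.69 with the pseudocount of 1 and 2.67 with 64.

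Between these genes in the same row, CYP71B34 (AT3G26300) had 176.8, 181.4 and 213.5 in Col-0, against 178.0, 222.3 and 227.2 in Ler. Its arrays overlapped, with a log2 fold change of -0.12 ± 0.14 (SE; limma, adjusted p = 0.50; 95% interval -0.42 to 0.17). So in 1 row of 6 members, 2 tested ones were over 10-fold higher in Col-0 on the log2(signal + 16) scale. CYP71B34, the next measured gene after CYP71B26, had an interval that excludes a change of that size. CYP71B25, CYP71B35 and CYP71B36 of this row stayed below the filter in both wild types. CYP71B35 had 36.9, 3.2 and 28.7 in Col-0, against 2.8, 4.4 and 1.8 in Ler, and passed when the filter was dropped (0.91 ± 0.32; limma, adjusted p = 0.040).

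CYP71B23, the tested member of the neighbouring row, had 740.7, 828.2 and 733.9 in Col-0, against 598.6, 487.7 and 481.5 in Ler. Its log2 fold change was 0.55 ± 0.10 (SE), 1.46-fold (limma, adjusted p = 0.00049). Together with the mutant, CYP71B23 thus had a descending order over the Col-0, Ler and clv1-15 groups, with no overlap between any of the groups.

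A further probe set of this stretch names both CYP71B20 and CYP71B19, and so is not among the 23. It had 4.6, 19.4 and 25.8 in Col-0, against 561.9, 445.2 and 475.5 in Ler. Its signal was lower in Col-0, where those of CYP71B37 and CYP71B26 were higher. The probe set lay between 16.8 and 26.9 in the CLE3ox lines and between 311.1 and 479.9 in clv1-15. All its arrays of the Col-0 background were below the filter's edge of 51.75, so it passed the filter through its level in the Ler background. Its log2 difference hangs on the pseudocount, at -5.09 with 1, -4.02 with 16 and -2.80 with 64, and no fold is given.

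Probe sets of other gene families in and beside these rows gave smaller differences than CYP71B26 and CYP71B37. Of 5 that were tested within 10 genes of the rows, 3 passed between Col-0 and Ler, where 45.3% of all tested probe sets passed. Of the 5, 0 passed and reached 2-fold. Few probe sets did so anywhere: 93.24% of all tested had a smaller difference than CYP51G2, at 2.00-fold. AT3G26350, the next measured gene after CYP71B37, was higher in Col-0 by 0.61 ± 0.14, and AT3G26360 and AT3G26370 fell by 0.51 ± 0.10 and 0.34 ± 0.08 on the log2 scale (SE; limma, adjusted p = 0.0027, 0.00084 and 0.0020).

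**Figure D4:**
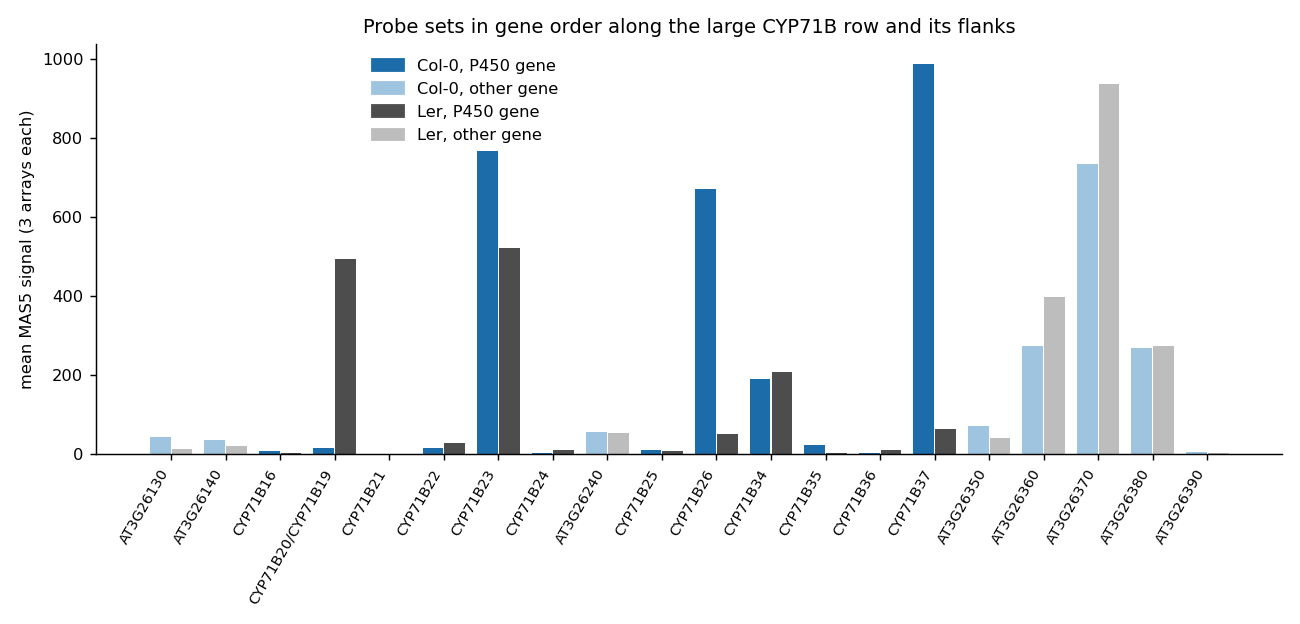
Mean MAS5 signal (3 arrays each) in Col-0 and Ler of the probe sets along the joined CYP71B row on chromosome 3 and its flanks, in gene order and not to distance. CYP71B26 and CYP71B37 are tall in Col-0 (671.1 and 989.5) and short in Ler (50.8 and 65.4), the shared CYP71B20/CYP71B19 probe set is the reverse (16.6 and 494.2), and the CYP71B34 means are 190.6 and 209.2.

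CYP71B6, on chromosome 2 and in no row, averaged 2413 ± 101.3 in Col-0 and 974.5 ± 13.6 in Ler (SD, n = 3 each). The log2 fold change was 1.29 ± 0.065 (SE), 2.45-fold (limma, adjusted p = 3.5e-10). The order of the CYP71B6 group means over the 5 genotypes, high to low, was Col-0, line 17-3, line 12-1, Ler and clv1-15. Neighbours in that order differed past the test except lines 17-3 and 12-1, and line 12-1 and Ler, which no test compared and whose arrays did not overlap.

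CYP84A4 (AT5G04330), a paralogue of the lignin enzyme ferulate 5-hydroxylase that acts in the synthesis of arabidopyrones, had 207.5, 203.9 and 169.5 in Col-0, against 72, 82 and 81.1 in Ler. It was 1.148 ± 0.125 higher on the log2 scale (SE), 2.22-fold (limma, adjusted p = 2.2e-06). CYP78A9 had 299.8, 337.5 and 321.4 in Col-0, against 204.5, 213.6 and 195.9 in Ler, a log2 fold change of 0.60 ± 0.10 (SE; limma, adjusted p = 0.00016).

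CYP51G2 (AT2G17330) was the only tested member lower in Col-0 past the test, with 94.1, 106.0 and 116.2 in Col-0, against 224.8, 208.7 and 248.6 in Ler. The log2 fold change was -1.004 ± 0.116 (SE), 2.00-fold lower in Col-0 (limma, adjusted p = 4.4e-06). The 2 tested genes of the chromosome 1 row had overlapping arrays in the wild types. CYP71B28 had 188.8, 211.4 and 247.1 in Col-0, against 134.0, 211.8 and 152.0 in Ler, and CYP71B29 had 201.6, 185.6 and 146.6 in Col-0, against 220.4, 194.6 and 232.2 in Ler.

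Neither gene of that row passed (0.36 ± 0.15 and -0.26 ± 0.12; limma, adjusted p = 0.061 and 0.080). CYP71B28 passed in 4 of 16 alternatives, most clearly without the second Ler array (0.54; adjusted p = 0.0073), and CYP71B29 passed without the first Col-0 array (-0.35; adjusted p = 0.041). Neither tissue marker list moved one way. Of the root genes, EXPA7 and EXPA18 were 1.07 and 1.29 higher in Col-0 on the log2 scale (limma, adjusted p = 1.5e-07 and 8.1e-08), and PYK10 fell by 0.25 (limma, adjusted p = 0.011). Of the green shoot genes, RCA fell by 1.04 (limma, adjusted p = 6.1e-06), and LHCB4.1 had 0.05 (limma, adjusted p = 0.68). Their part in the P450 differences was not tested.

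For CYP71B37, CYP71B26, CYP84A4 and CYP51G2, chosen for their large contrasts between the wild types, the altered genotypes lay on the side of their own ecotype. CYP71B37 lay between 960.6 and 1173.9 in the 4 arrays of the CLE3ox lines and between 71 and 81.1 in clv1-15, and CYP71B26 between 592.8 and 817.6 in the lines and between 42.5 and 68.4 in clv1-15. CYP84A4 lay between 173.6 and 200.7 in the lines and between 66.3 and 88.8 in clv1-15. CYP51G2 lay between 108.1 and 131.0 in the lines and between 208.9 and 223.0 in clv1-15. In each case the ranges of the lines and clv1-15 did not overlap. Among the members called between the wild types, they overlapped only for CYP78A9, at 247.5 to 317.9 in the lines and 306.1 to 352.3 in clv1-15. The share of all probe sets without such an overlap was not counted.

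Genes that work with P450s were taken from a list of 51 reductases, triterpene, glucosinolate, phenylpropanoid and suberin genes. Of these, 6 had a probe set named for a single gene that passed the filter on low signal, and were tested. In the CLE3ox lines 0 of the 6 passed in limma, where 2.44% of all tested probe sets did. At an unadjusted p under 0.05 there were 3 of the 6, against 14.4% of all tested, and the glucosinolate glucosyltransferase UGT74C1 came closest at 0.48 ± 0.12 (adjusted p = 0.050 after rounding). In line 17-3 alone UGT74C1 passed, at 0.62 ± 0.14 (limma, adjusted p = 0.024), while the difference of 0.29 ± 0.16 between lines 17-3 and 12-1 did not (limma, adjusted p = 0.78).

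In clv1-15 only HCT, an acyltransferase of lignin synthesis, passed among the 6, where 15.3% of all tested probe sets passed, and it was higher by 0.40 ± 0.08 (SE; limma, adjusted p = 0.0053). The difference between the CLE3ox and clv1-15 effects passed for HCT and UGT74C1 alone among the 6, where 11.2% of all tested probe sets passed. It was -0.60 ± 0.115 for HCT and 0.79 ± 0.18 for UGT74C1 (SE; limma, adjusted p = 0.0036 and 0.0099). Between Col-0 and Ler 4 of the 6 passed, 1 higher and 3 lower, where 45.3% of all tested probe sets passed (20.9% higher and 24.4% lower). HCT was higher in Col-0 by 0.30 ± 0.08, and the thalianol acyltransferase THAA1, UGT74C1 and the aminotransferase BCAT4 fell by 1.37 ± 0.10, 0.50 ± 0.13 and 0.31 ± 0.12 on the log2 scale (limma, adjusted p = 0.0087, 2.5e-08, 0.0052 and 0.047). The P450 lists for suberin, jasmonate, brassinosteroid, abscisic acid, gibberellin, cytokinin and strigolactone metabolism held no member among the 23, and those pathways were not analysed here.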

How the data were processed

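Root RNA of 5 genotypes was measured on 13 ATH1 arrays, grouped by their labels. The authors made the deposited intensity values, which are linear, with MAS5, per the submitters' processing notes, with no version given. Each array had been scaled to the same level, since its mean after trimming 2% of the probe sets from either end was 500. The number of arrays limits the precision. Detection calls were not used here, 0 columns lacked a sample and 0 pairs of arrays were identical.

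The analysis used log2(signal + 16), without the 64 control probe sets and without the lowest 30% of the rest by mean, which left 15922. One linear model of the 5 groups was fitted in limma 3.58.1 (R 4.3.3) with eBayes (trend), and p-values were adjusted by Benjamini-Hochberg across all probe sets tested. A gene was called at an adjusted p under 0.05. For CLE3ox the lines were averaged with equal weight, and the error leaves out the difference between lines. Col-0 arrays enter both lines' comparisons and that of the wild types, and Ler arrays enter that one and the mutant's.

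Gene names were taken from the platform annotation, in which 13513 probe sets have 1 gene symbol and 503 several, and from TAIR10.1 by gene ID (23 of 23 members matched), which gave gene order only. No sequences were used here. The members, tandem and clan rules and gene lists were chosen with earlier results of these data known. The rule for named genes takes up to 12 members past the threshold in each direction for CLE3ox and clv1-15, 10 for the wild types and 5 otherwise, plus members of role lists and tandem rows. Other tested members were named as well, after their values were seen.

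Alternatives changed the pseudocount, filter, scaling, variance prior, array weights, replicate block, fitted groups and bioD control block, or left out each array. The numbers were not taken to pair samples, since the labels do not say that a number marks a shared culture or day. Same-numbered arrays of different groups deviated from their group means with correlations between -0.19 and 0.31. The highest, 0.31, was that between lines 17-3 and 12-1. With 2 arrays per line, the deviations of replicates 1 and 2 are equal and opposite. Both replicate numbers must therefore give the same value, and they are not separate observations. A shared batch of the lines was not tested.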

Additional observations from a re-analysis of the deposited data

How the results depend on the processing

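Of 1511 values of named P450 probe sets recomputed in the alternatives, 1494 kept their side of the threshold, 6 gained a call, 11 lost it and 0 called values changed sign. The count of called members in clv1-15 was 3 in every alternative run, though the number tested changed with the filter. It was 3 of 10 in the main run, where 15.3% of all tested probe sets passed. With no filter it was 3 of 23, against 8.85% of all, and with the lowest 50% left out 3 of 5, against 18.1%. With each array left out in turn, the count was 3 to 3 for clv1-15 and 7 to 9 for Col-0 against Ler. For the CLE3ox lines it was 1 without each Col-0 array. In the main run 15.3%, 45.3% and 2.44% of all tested probe sets passed in these comparisons. Over all probe sets, clv1-15 calls went from 2434 to 1503 without Ler replicate 1. CLE3ox calls went from 389 to 228 or 206 without Col-0 replicate 1 or 3. Between the wild types no run moved the 7215 calls by more than 1.5 times. The steady member counts therefore say little about the members. Among arrays of higher bioD control signal, the count was 0 for the CLE3ox lines, 0 for line 12-1 and 0 for line 17-3. Among those of lower signal it was 0 for line 12-1 and 0 for line 17-3. Each line has 1 array in either set, so its spread is taken from other groups. The CYP71B6 log2 values there were -0.45 to -0.48 in line 12-1 and -0.30 to -0.40 in line 17-3. With no filter, 23 members were tested and 8 passed between Col-0 and Ler, where 32.5% of all probe sets passed. With the lowest 50% left out, 5 were tested and 5 passed there, against 47.1% of all probe sets. That filter left out CYP71B34, with a typical signal of 187.7. CYP71B26 and CYP71B37 averaged only 50.8 and 65.4 in Ler, so they passed this filter through their level in the Col-0 background. The 5 of 5 therefore says little about the members. The replicate number as a block left the counts at 1, 3, 7, 1, 1, 0 and 1 for the CLE3ox lines, clv1-15, Col-0 against Ler, line 12-1, line 17-3, the test between the lines and that between effects. Over all probe sets this replicate block gave 341 calls for CLE3ox (389 without it), 2390 for clv1-15 (2434) and 7229 between the wild types (7215). Deviations of arrays from their group means correlated best with their own number in 5 of 6 cases in the mutant comparison. In that of the wild types they did so in 2 of 6, a hint from the data and not from the design. The same-number correlations were only 0.01, 0.19 and 0.1 in the mutant comparison. The 6 cases reuse the same correlations from either group's side, so they are not separate observations. Calls of all probe sets moved by more than 1.5 times for CLE3ox (389) without line 12-1 replicate 2 (236), Col-0 replicate 1 (228) or 3 (206) and within the lower and higher control signal (66 and 54), and for clv1-15 without Ler replicate 1 (1503). They did so for the difference between effects without Col-0 replicate 1 (1156 against 1785), for line 12-1 at 16 to 125 against 69, for line 17-3 at 102 to 347 against 528, and between the lines at 13 to 22 against 42. Signals below the filter limit what can be said of the other 13 members.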

Other observations

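CYP718, a P450 of clan 85 whose symbol has no subfamily letter, fell outside the rule for members and was looked at after its values were seen. It had 12.3, 12.6 and 42.5 in clv1-15, against 104.0, 53.3 and 60.3 in Ler. Every mutant array lay below every Ler array and below the filter's edge of 51.75. Its typical signal over the 13 arrays was 51.78, just inside that edge, so it entered the test only through its level in the other groups. The log2 difference was -1.25 ± 0.32 (SE; limma, adjusted p = 0.016), and it hangs on the pseudocount, at -1.82 with 1 and -0.66 with 64. Without the filter the adjusted p was 0.035. The call ended without the first or second clv1-15 array (adjusted p = 0.065 and 0.070) or without the first Ler array (adjusted p = 0.082), and adjusted p over the alternatives lay between 0.0047 and 0.082. In Col-0 the same probe set lay between 43.9 and 110.3.

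CYP71B21, which is below the filter, had 0.7 and 20.3 in line 17-3, 0.8 and 2.5 in line 12-1, and 1.0, 0.5 and 1.1 in Col-0. The single value of 20.3 stood apart from the other 12 arrays, all at 2.5 or less. CYP71B38, also below the filter, had 36.3 and 32.3 in line 17-3, against 19.3 and 4.8 in line 12-1. Without the filter that difference was 0.89 ± 0.28 on the log2 scale (SE; limma, adjusted p = 0.42).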
